A study of Homo sapiens with 2 samples.

Results

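Genes that encode proteins with a SCAN domain were followed in EOL-1, a line of human eosinophilic leukaemia cells driven by the fusion kinase FIP1L1-PDGFRA. The members were chosen by gene symbol. They are the ZSCAN and ZKSCAN genes with a number, SCAND1 and PGBD1, without pseudogenes and antisense genes, and 27 of the 19775 genes on the array with a probe set of their own met this rule. The set was proposed with the signals of these same 2 arrays in view, so every value below is a description and supports no test. 1 culture had received 100 nM Glivec (imatinib, an inhibitor of PDGF receptor, ABL and KIT kinases) for 4 h and 1 had been left untreated, and each was measured on 1 array. All values are signal intensities. Since neither group has a second array, no difference could be checked on replicates, and no p-value is given.

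The SCAN domain is a leucine-rich module through which zinc finger proteins pair with one another. Most proteins that carry it also hold a row of C2H2 zinc fingers that contact DNA. Those named ZKSCAN hold in addition a KRAB domain, which can recruit the corepressor TRIM28 and with it histone methylation and silencing. The symbols thus sort the members into KRAB and SCAN genes (7), SCAN and finger genes without KRAB in the name (18), and 2 genes without fingers, SCAND1 and PGBD1.

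Of the 27 genes, 20 had signals above the floor of 13.7 on both arrays, the median of all signals, below which signals were not ordered. Another 3, ZSCAN10, ZSCAN20 and ZSCAN23, exceeded it on the Glivec array alone, so that their ratios could only be positive and are bounds. The remaining 4, ZSCAN1, ZSCAN4, ZSCAN18 and ZKSCAN7, lay below it on both, with signals of 0.913 to 11.0, and have no ratio. The RefSeq gene table lists 30 protein-coding genes that meet the rule, and ZSCAN21, ZSCAN5B and ZSCAN5C are not analysed here.

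Most SCAN-domain genes gave more signal after Glivec, by a small amount. Among the 20 above the floor on both arrays, 16 had a positive log2 ratio of Glivec over untreated signal (80%) and 4 a negative one, where 57.8% of all such genes were positive. Their median log2 ratio was 0.50, against 0.09 over the 10975 genes above the floor on both arrays. They ranged from -0.28 to 1.05, with an SD of 0.43 between members. With the 3 bounds included there were 23 measured members, 9 of them at least 1.5-fold higher, where 13.5% of all 12705 measured genes were. None (0 of 23) was at least 1.5-fold lower, where 8.33% of measured genes were. Only 1 of the 23 was at least 2-fold higher, against a background of 3.13%, and 0 were at least 2-fold lower, against 2.63%. Besides it, 7 of the 9 lay between 1.5-fold and 2-fold, and ZSCAN23 is a lower bound.

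The direction depended on how the arrays were scaled. The median over measured members was 0.43 as deposited, 0.48 after quantile normalization and 0.33 after centring on the median of all genes, but -0.16 when both arrays were scaled to the hybridisation spike-ins. Those 18 control probe sets had a median log2 ratio of 0.74 (0.42 to 0.89). Spike-in scaling put 0 members at least 1.5-fold higher and 9 of 22 at least 1.5-fold lower, where 50.5% of all genes were, and the median over all genes went from 0.10 to -0.59. The distance between the members' median and that of all genes was 0.33 as deposited and 0.44 after quantile normalization. Centring shifts every gene alike and cannot change it (0.33). Spike-in scaling does so too, apart from genes near the floor, and gave 0.43. Higher and lower below are relative to the deposited scale.

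**Figure D1:**
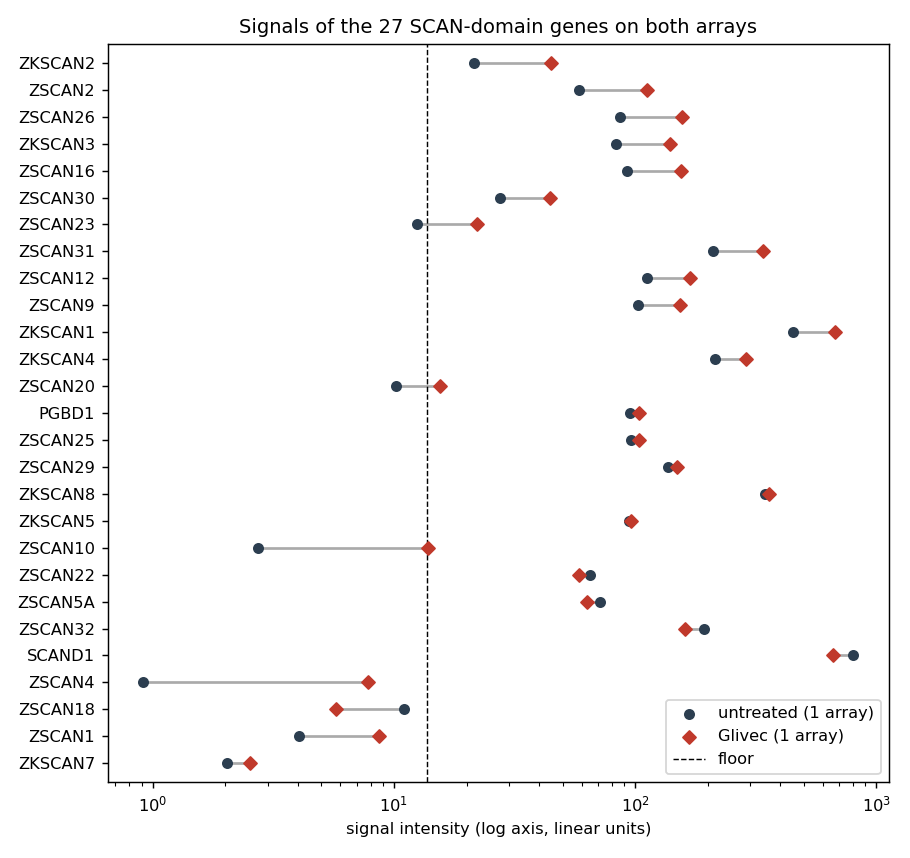
Signal intensity (log axis) of the 27 SCAN-domain genes on the untreated array (circles) and the Glivec array (diamonds), 1 array each, ordered by ratio with the 4 genes below the floor at the bottom. The dashed line is the floor of 13.7. The diamond lies to the right of the circle in 16 of the 20 genes that exceed the floor on both arrays.

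Among the KRAB and SCAN genes, all 6 that were measured had a positive ratio by the brightest probe set, and 2 were at least 1.5-fold higher. Of all measured genes, 59% were positive and 13.5% at least 1.5-fold higher. With median centring ZKSCAN5 and ZKSCAN8 turned to -0.08 and -0.04, and with quantile normalization ZKSCAN5 turned to -0.05. ZKSCAN2 had a signal of 44.7 with Glivec and 21.6 without. This 2.07-fold difference was the only one past 2-fold among the 20 members above the floor on both arrays, and it exceeded the ratio of 97.4% of measured genes. It rests on a single probe set with an untreated signal near the floor.

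ZKSCAN3 encodes a factor known as a repressor of autophagy and lysosome genes. Its signal was 139.5 with Glivec against 83.3 without, or 1.67-fold higher. Its 4 probe sets were all higher, at log2 ratios of 0.74, 1.06, 0.75 and 1.08, and the last of these had signals of 47.6 and 22.5. The 2 at 1.06 and 1.08 lay past 2-fold, although the brightest, which stands for the gene, did not.

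ZKSCAN1, whose transcript is known also as the source of a circular RNA, had a signal of 674.2 with Glivec and 453 without. Its log2 ratio was 0.57, just under 1.5-fold, and its other 3 probe sets gave 0.48, 0.71 and 0.33. ZKSCAN4 stood at 287.0 and 213.5, a log2 ratio of 0.43 from 1 probe set. All probe sets of both genes were higher on the Glivec array.

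ZKSCAN8 and ZKSCAN5 were nearly level between the arrays by their brightest probe sets. ZKSCAN8 gave 359.6 with Glivec and 346.2 without, a log2 ratio of 0.05, and 0.39 by a second probe set. ZKSCAN5 gave 95.7 and 94.6, a log2 ratio of 0.02, and 0.45 by a second. In both genes the spread between probe sets was larger than the ratio itself.

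Of the ZSCAN genes, 15 were measured, and 7 of them (46.7%) were at least 1.5-fold higher, against 13.5% of all measured genes. The ratios of ZSCAN10, ZSCAN20 and ZSCAN23 are bounds that could only be positive, and ZSCAN23 is among the 7. ZSCAN2 had the largest difference, with a signal of 112.0 with Glivec and 58.6 without, or 1.91-fold. Its second probe set was at the floor without Glivec (19.2 against 10.1) and gave a bound of 0.49. ZSCAN2 was the member nearest to 2-fold from below, as ZKSCAN2 was from above.

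ZSCAN26 had a signal of 155.8 with Glivec and 86.4 without, or 1.80-fold. ZSCAN16 stood at 154.2 and 92.1, or 1.67-fold. ZSCAN31 stood at 338.4 and 210.1, or 1.61-fold. Each of these 3 genes has 1 probe set, so no second measurement stands beside it.

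ZSCAN30 was 1.61-fold higher, with signals of 44.5 and 27.5, and its second probe set above the floor on both arrays gave a log2 ratio of 0.65. Another, at the floor without Glivec, gave a bound of 0.88. ZSCAN12 had signals of 168.8 and 111.7, or 1.51-fold, with log2 ratios of 0.61 and 0.09 by 2 dimmer probe sets. ZSCAN23 was at least 1.61-fold higher, from a signal of 22.1 with Glivec and 12.4, below the floor, without. ZSCAN12 and ZSCAN23 are the least firm of the 7, the first by its probe sets and the second by its dim signal.

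ZSCAN9 fell just outside 1.5-fold, with signals of 153.4 and 102.8 and a log2 ratio of 0.58. Its other probe set gave 0.48. The members nearest to 1.5-fold were therefore ZSCAN12 just inside, and ZSCAN9 and ZKSCAN1 just outside. A cut at 1.5-fold divides genes whose ratios differ by less than the spread between probe sets.

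ZSCAN25 and ZSCAN29 were close to level, at log2 ratios of 0.12 and 0.11. A second ZSCAN25 probe set gave 0.13. ZSCAN20 gave a bound of 0.18 from signals of 15.5 and 10.2, and a bound of 0.48 by a second probe set (19.1 against 2.99). ZSCAN10, known as a factor of embryonic stem cells, barely passed the floor with Glivec (13.9 against 2.73), which leaves a bound of 0.02. ZSCAN4, known from the earliest embryo, was below the floor on both arrays at 7.79 and 0.913.

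Lower signals with Glivec were seen for 3 ZSCAN genes and for SCAND1. ZSCAN32 had 160.2 with Glivec and 193.3 without, a log2 ratio of -0.27, and -0.68 by its dimmer probe set. ZSCAN5A stood at 62.9 and 71.7 (-0.19) and ZSCAN22 at 58.7 and 65.0 (-0.15), each by 1 probe set above the floor. All 3 differences were small, and ZSCAN32 alone had a second probe set to the same side.

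Of the members without fingers, SCAND1 was the lowest in the set and PGBD1 stood near its middle. SCAND1, a short protein that is little more than the SCAN domain, had signals of 659.5 with Glivec and 801.8 without, a log2 ratio of -0.28. Its other probe sets gave -0.58 and -0.13, and all 3 carry the suffix that marks possible cross-hybridisation. PGBD1, which joins a SCAN domain to a domesticated piggyBac transposase, was at 104.0 and 95.5, a log2 ratio of 0.12. Of 3 other piggyBac-derived genes measured, PGBD5 was at 0.77, PGBD2 at 0.16 and PGBD4 at -0.52.

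Several probe sets were above the floor on both arrays in 10 members. In 8 of these genes every such probe set was higher, and in 2 (SCAND1 and ZSCAN32) every one was lower. Probe sets above the floor with Glivec alone, as in ZSCAN20, can only be positive and are left out of this count. Over the 36 member probe sets above the floor on both arrays, 29 were positive and 7 negative, with a median of 0.46. Neither count was made over the whole array. Of all genes above the floor on both arrays, 57.8% were positive by the probe set that represents them, with a median of 0.09. The pooled SD between probe sets of a gene was 0.21 on the log2 scale over 10 members, and 0.33 over 5603 genes. This spread leaves out all variation between cultures.

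**Figure D2:**
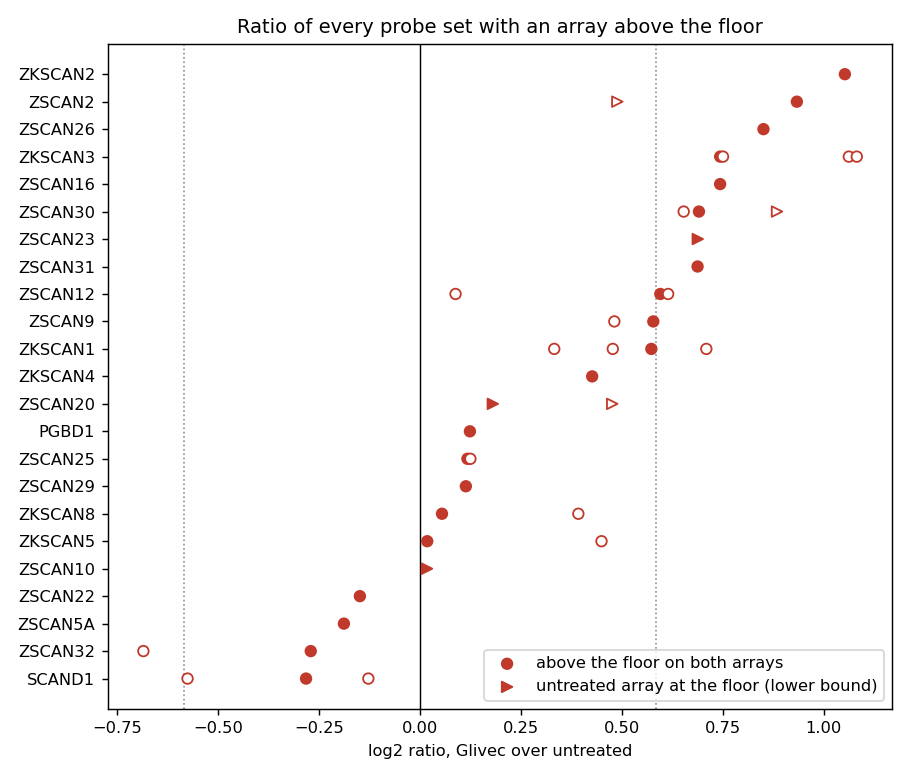
Log2 ratio of Glivec over untreated signal for each probe set with at least 1 array above the floor, by gene. Filled symbols are the probe set that represents the gene, open symbols its other probe sets, triangles lower bounds, and dotted lines mark 1.5-fold. No gene has probe sets on both sides of 0, but 11 genes have only 1 probe set here and triangles could only be positive. The 4 ZKSCAN3 probe sets lie between 0.74 and 1.08.

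Position on the chromosomes was not used to choose the members. Ordered along the RefSeq genes, 10 of them stand in 1 row on chromosome 6, from ZSCAN16 through ZKSCAN8, ZSCAN9, ZKSCAN4, ZSCAN26, PGBD1, ZSCAN31, ZKSCAN3 and ZSCAN12 to ZSCAN23, with each start within 1 Mb of the one before. This grouping was made after the values were seen and gets no test. All 10 had a positive log2 ratio, from 0.05 for ZKSCAN8 to 0.85 for ZSCAN26, with a median of 0.64. Of all measured genes, 59% were positive, and with median centring 9 of the 10 were. With ZSCAN23, a bound, left out the median over the other 9 was 0.60. The 13 measured members elsewhere had a median of 0.11, from -0.28 to 1.05, with 9 positive and 4 negative. With the bounds of ZSCAN10 and ZSCAN20 left out, the other 11 had a median of 0.11, with 7 positive and 4 negative. With spike-in scaling the row's median was -0.10, with 4 of 10 positive, and that of the members elsewhere -0.62.

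ZSCAN31 and ZKSCAN3 overlap each other on opposite strands, and their log2 ratios were 0.69 and 0.74. The row was not uniform, since ZKSCAN8 and PGBD1, at 0.05 and 0.12, lie between neighbours at 0.58 or more. Genes around the row were mostly positive too. The 10 measured protein-coding genes before it had a median of 0.36, all 10 positive, but POM121L2 and H2AC16 passed the floor with Glivec alone and could only be positive. Among the other 8 was ZNF165, itself a SCAN gene, at 0.81. The 10 after it had a median of 0.48 with 8 positive, but several of these were at the floor on the untreated array. The 4 after it that were above the floor on both arrays had a median of 0.70, with 3 positive. For the 8 such genes before the row the median was 0.36, and for the 9 such members in the row 0.60. Next to ZSCAN23 the nearest measured gene, TRIM27, was at -0.49 (616.5 with Glivec against 864.0), and ZNF311 beyond it was at 1.55 (96.7 against 33.0). The other rows held 3 measured members at most. On chromosome 7, ZKSCAN5, ZSCAN25 and ZKSCAN1 were at 0.02, 0.12 and 0.57.

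**Figure D3:**
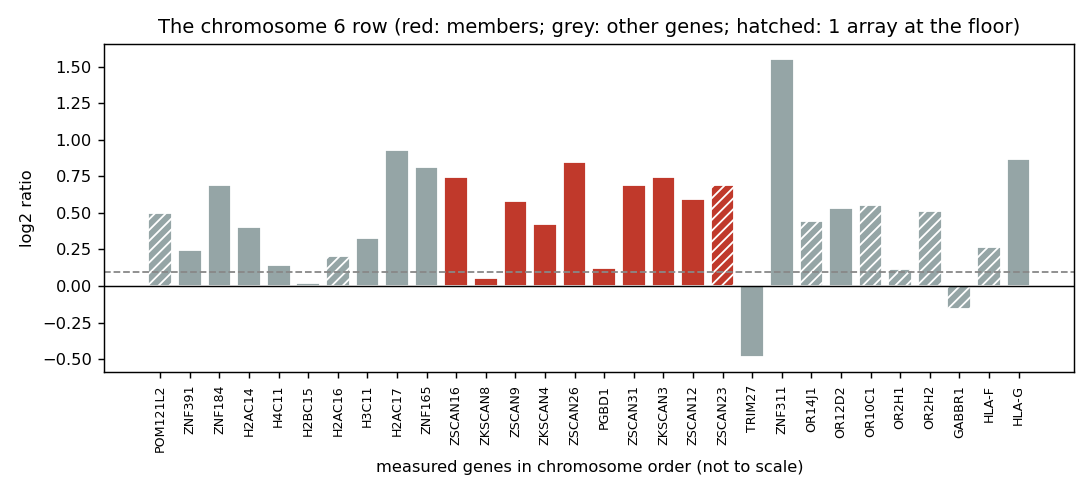
Log2 ratio of Glivec over untreated signal for the measured protein-coding genes of the chromosome 6 row and the 10 measured on either side, in chromosome order and not to scale. Red bars are SCAN-domain members, grey bars other genes, hatched bars have 1 array at the floor, and the dashed line is the median of all measured genes, 0.10. All 10 members are positive, and ZKSCAN8 and PGBD1 are the shortest red bars.

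Promoters were read for the members to see whether those with higher signals share sequence features. RefSeq windows from 250 bases before to 50 after the start (build GRCh38.p14, the first window listed per gene) were found for 20 of the 23 measured members. Those without a window were ZKSCAN2 (log2 ratio 1.05), ZSCAN26 (0.85) and ZSCAN16 (0.74), all of them at least 1.5-fold higher. The higher members are thus covered only in part, without the largest ratio. Shown are the 250 bases before the start of members above the floor on both arrays whose stretch lies outside every protein-coding gene. They are the 4 of these with the largest and the 2 with the smallest ratios. ZSCAN2 is at chr15:84600759-84601008 (+), ZSCAN30 at chr18:35290230-35290479 (-), ZSCAN12 at chr6:28399748-28399997 (-) and ZSCAN9 at chr6:28224990-28225239 (+). ZSCAN22 is at chr19:58326744-58326993 (+) and ZSCAN5A at chr19:56368279-56368528 (-). Each is written 5′ to 3′ on the gene's strand, and capitals mark matches to the letters of an ETS site or an Sp1 site on either strand.
ZSCAN2: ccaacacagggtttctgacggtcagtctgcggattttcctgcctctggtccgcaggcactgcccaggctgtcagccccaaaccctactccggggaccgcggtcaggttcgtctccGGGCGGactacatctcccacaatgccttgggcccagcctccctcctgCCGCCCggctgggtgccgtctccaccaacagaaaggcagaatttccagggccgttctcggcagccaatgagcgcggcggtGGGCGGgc
ZSCAN30: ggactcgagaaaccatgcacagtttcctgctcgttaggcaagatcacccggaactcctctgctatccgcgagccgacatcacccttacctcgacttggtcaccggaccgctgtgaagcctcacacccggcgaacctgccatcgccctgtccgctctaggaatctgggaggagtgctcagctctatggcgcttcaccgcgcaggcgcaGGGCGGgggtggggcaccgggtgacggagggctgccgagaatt
ZSCAN12: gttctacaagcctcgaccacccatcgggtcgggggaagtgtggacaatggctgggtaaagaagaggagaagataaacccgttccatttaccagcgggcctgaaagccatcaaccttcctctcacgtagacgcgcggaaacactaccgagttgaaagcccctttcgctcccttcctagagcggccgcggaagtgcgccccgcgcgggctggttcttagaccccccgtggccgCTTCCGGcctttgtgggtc
ZSCAN9: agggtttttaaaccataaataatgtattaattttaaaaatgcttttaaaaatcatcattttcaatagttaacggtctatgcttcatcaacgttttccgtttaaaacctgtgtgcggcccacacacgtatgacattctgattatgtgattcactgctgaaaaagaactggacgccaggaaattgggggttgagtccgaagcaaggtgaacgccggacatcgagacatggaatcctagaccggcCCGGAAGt
ZSCAN22: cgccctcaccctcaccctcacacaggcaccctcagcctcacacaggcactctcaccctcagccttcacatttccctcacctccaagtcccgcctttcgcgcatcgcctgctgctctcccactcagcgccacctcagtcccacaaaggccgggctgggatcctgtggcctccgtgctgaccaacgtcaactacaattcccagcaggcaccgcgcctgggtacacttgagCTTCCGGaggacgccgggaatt
ZSCAN5A: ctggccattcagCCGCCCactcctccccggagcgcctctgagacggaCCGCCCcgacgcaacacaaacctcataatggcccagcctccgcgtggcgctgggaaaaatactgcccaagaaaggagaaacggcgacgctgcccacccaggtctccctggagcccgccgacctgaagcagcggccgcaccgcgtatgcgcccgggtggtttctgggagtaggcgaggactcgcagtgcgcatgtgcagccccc

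The searched letters were GTAAACA for FOXO, CACGTG for the MYC E-box, TTCNNNGAA for STAT5, CCGGAAG for ETS factors, GGGCGG for Sp1 and TATAAA for the TATA box, on both strands of the 300-base window. The first 4 stand for factors that act below receptor kinases, and the others describe the promoter type. ETS letters stood in 10 of 20 member windows (50%), against 10.7% of all 27305 windows. The sets are unlike, since all windows include those of genes not measured here and the member windows do not. No count was made over the windows of measured genes alone. ETS letters stood in 2 of the 6 windows of members at least 1.5-fold higher (ZSCAN12 and ZKSCAN3) and in 8 of the other 14, ZKSCAN8, ZSCAN29 and ZSCAN32 among them. Sp1 letters stood in 12 of 20 (60%), against 44.6%. STAT5 letters stood in 3 of 20 (15%), against 7.88%. FOXO, E-box and TATA letters stood in 0 of 20, where 3.41%, 7.43% and 12.0% of all windows held them. ETS and STAT5 letters can overlap, as can ETS and Sp1 letters on opposite strands, but 0 matches in these windows did. A match is a description of letters and not a bound site.

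The member windows had a median G+C content of 63.2% and a median of 22.5 CpG, against 58.3% and 14 over all windows, of measured genes or not. Those of the 6 members at least 1.5-fold higher that have a window had medians of 55.0% and 20, those of the other 14 had 63.8% and 24. Within the printed stretches, ZSCAN9 with 40.8% G+C and ZSCAN2 with 66.0% both belong to genes with higher signal.

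Other SCAN genes carry ZNF symbols or names of their own, and their median lay nearer to that of all genes. Of 26 listed, 24 had a probe set of their own and 19 were measured. Their median log2 ratio was 0.22, with 11 positive and 8 negative, 4 at least 1.5-fold higher (21.1%) and 1 at least 1.5-fold lower (5.26%). ZNF446, ZNF165 and ZNF396 were highest, at 0.82, 0.81 and a bound of 0.72. ZNF202, known as a repressor of lipid metabolism genes, was 2.24-fold lower, with a signal of 52.2 with Glivec and 117.0 without, followed by ZNF397 (-0.42) and ZNF232 (-0.34). The myeloid zinc finger gene MZF1 was at 0.52 (142.0 against 99.0). Whether the 2 sets of SCAN genes differ could not be tested with 1 array per group.

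Zinc finger genes at large had a median between that of the members and that of all genes. The 354 other measured ZNF genes had a median of 0.15, with 72 (20.3%) at least 1.5-fold higher and 29 (8.19%) at least 1.5-fold lower. They were taken by symbol alone and, unlike the members, include pseudogenes such as ZNF271P and ZNF818P. At 2-fold, 23 of them (6.5%) were higher and 3 (0.847%) lower. ZNF76, ZNF763 and ZNF610 were highest, at 1.97, 1.58 and 1.56, and ZNF331, ZNF593 and ZNF185 lowest, at -1.50, -1.44 and a bound of -1.01. The 36 measured ZBTB genes, whose proteins pair through a BTB domain in place of SCAN, had a median of 0.20. ZBTB7B, ZBTB25 and ZBTB16 were highest, at 1.29, 1.12 and 1.02, and ZBTB9, ZBTB24 and ZBTB11 lowest, at -1.02, -0.76 and -0.73.

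The corepressor machinery through which KRAB proteins act was measured in full, 16 of 16 genes, with a median log2 ratio of 0.18, 9 positive and 7 negative. Its largest ratios were those of ATF7IP, at 266.6 with Glivec and 147.4 without (0.86), and of its partner, the histone methyltransferase gene SETDB1, at 254.1 and 160.5 (0.66). CHD3, of the NuRD complex, was at 0.52. TRIM28, which KRAB domains bind, was at 0.47, with signals of 1894 and 1370. CBX5, MPHOSPH8 and MORC2 were lowest, at -0.51, -0.35 and -0.34. In this list 2 genes were at least 1.5-fold higher (12.5%), close to the background of 13.5%.

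**Figure D4:**
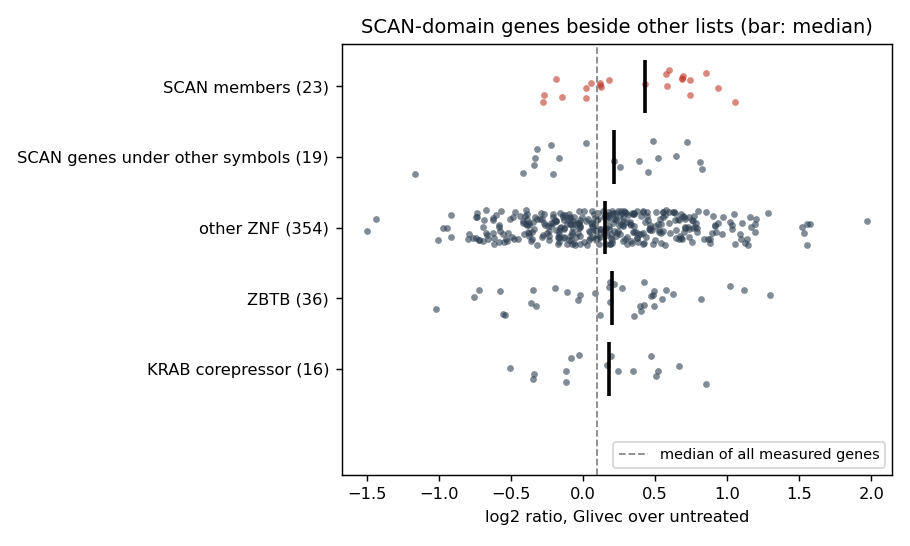
Log2 ratio of Glivec over untreated signal for each measured gene (points, with vertical jitter) of the SCAN-domain members and 4 other lists, with the number of genes in brackets and the median as a black bar. The dashed line is the median of all measured genes, 0.10. The members' median of 0.43 lies to the right of those of the other lists, 0.15 to 0.22, and the members' lowest ratio is -0.28.

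Genes of different signal level passed 1.5-fold at different rates. When all measured genes were put into 4 equal classes by mean signal, 12 members fell in the second class, from 31.4 to 129.5, in which 20.2% of genes were at least 1.5-fold higher. There 6 of the 12 members were, and their median log2 ratio was 0.63, against 0.17 over the class. In the dimmest class the 3 members, ZSCAN10, ZSCAN20 and ZSCAN23, had a median of 0.18 against 0.17 over the class. All 3 passed the floor with Glivec alone, so their ratios are bounds that could only be positive. In the class from 129.5 to 377.5 the 6 members had a median of 0.27 against 0.05, and in the brightest the 2 members had 0.15 against 0.03. The part of signal level in the members' ratios was not tested.

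**Figure D5:**
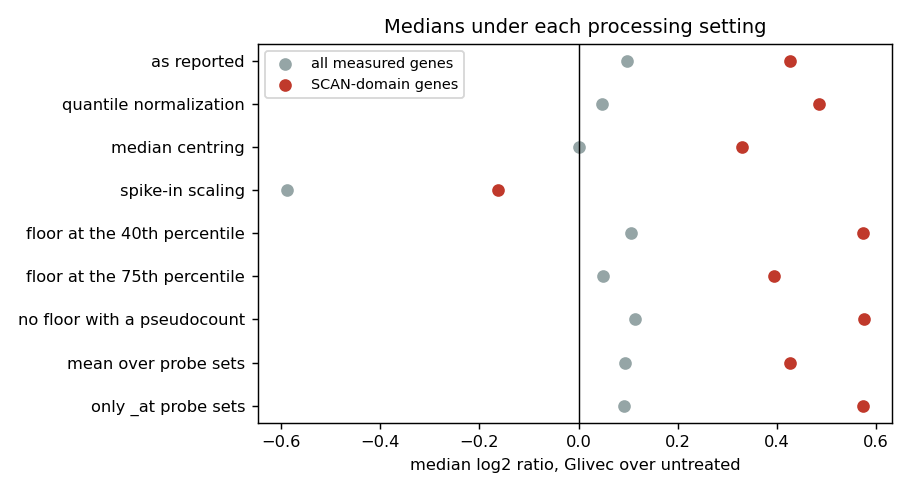
Median log2 ratio of the measured SCAN-domain members (red) and of all measured genes (grey) under the setting used here and 8 alternatives. Median centring and spike-in scaling shift both medians together, by construction or nearly so, and both medians are below 0 only with spike-in scaling, at -0.16 and -0.59.

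The labelled cell type was checked on markers. Of 8 eosinophil markers 6 had a probe set of their own, and PRG2 (6302 with Glivec, 4744 without) and RNASE2 (2872 and 2146) were bright, while IL5RA and SIGLEC8 lay below the floor on both arrays. CLC and EPX were near it. Of 7 myeloid markers 6 were above the floor on both arrays. T cell, B cell, epithelial and fibroblast lists had 0 to 2 genes above it on either array, the brightest being CD79A at 94.9 and 60.0. The summed signal of the eosinophil list was 9231 with Glivec and 6931 without, and that of the myeloid list 3897 and 3360. Within the myeloid list the genes went both ways, with SPI1 at a log2 ratio of 1.21, CSF2RB at -0.83 and GATA2 at -1.14, and PTPRC, the brightest, at 0.39. Their part in the members' ratios was not tested. In bulk RNA, fewer cells of a type and less RNA per cell cannot be told apart.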

How the data were processed

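Total RNA of 2 EOL-1 cultures (1 with Glivec, 1 untreated) was converted to biotinylated cRNA for Affymetrix arrays, per the labels' protocols. The authors deposited 1 linear signal intensity per probe set and array, from MAS5 per the submitters' processing notes (version not given in the sources used here). Their mean after trimming 2% at each end was 100.014 on both arrays, so they were used as scaled. The number of arrays limits the precision.

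Probe sets were named from the platform annotation, which can be old. Of 54675 probe sets, 41097 had 1 gene symbol, 1801 had several and 11777 were not listed, and only those with 1 were used. Entrez identifiers matched 41043 of them to RefSeq genes of GRCh38.p14 and changed 0 symbols. A gene was represented by the probe set of highest mean signal, one ending in _x_at only where no other existed. Signals below the 50th percentile of both arrays were raised to it before log2, and a gene counted as measured with 1 array above it. Thresholds were 1.5-fold and 2-fold. The calculation was tested on simulated data, with changes past 2-fold planted in genes of 1 probe set and untreated signal well above the floor. Changes below 2-fold, untreated signals near the floor and the choice between probe sets were not tested in this way. Alternatives were quantile normalization, median centring, spike-in scaling, a floor at the 40th or 75th percentile, a pseudocount (the 5th percentile of signals) without any floor, the mean over probe sets and only _at probe sets.

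The members, lists and alternatives were chosen with earlier results of these data known. Named are all members, and of each list the 3 largest ratios in each direction where the list has them, beside MZF1, TRIM28 and neighbours of the chromosome 6 row, which were singled out after their values were seen. Python 3.11.15, numpy 2.4.6, pandas 2.3.3 and matplotlib 3.10.9 were used.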

Additional observations from a re-analysis of the deposited data

How the results depend on the processing

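No paired analysis was possible because there is a single array per condition, so that no replicate could be left out either. All alternatives were listed before this calculation, with earlier results of these data known. The count of members at least 1.5-fold higher, 9 as reported, was 8 with quantile normalization, median centring, the mean over probe sets and only _at probe sets, 11 with the floor at the 40th percentile, 12 of 27 with a pseudocount (where 23.2% of all genes were), 5 of 16 with the floor at the 75th percentile and 0 of 22 with spike-in scaling. Quantile normalization moved ZSCAN12 (0.56) and ZSCAN30 (0.55) below 1.5-fold and ZKSCAN1 (0.61) above it. The count at least 1.5-fold lower was 9 of 22 with spike-in scaling (where 50.5% of all genes were) and 1 of 27 with the pseudocount (16.1%), and 0 in the other settings. The count at least 2-fold higher, 1 as reported, was 0 with quantile normalization, median centring, spike-in scaling and the floor at the 75th percentile, 2 with only _at probe sets and 3 with the pseudocount. Positive and negative members, 19 and 4 as reported, numbered 17 and 5 with quantile normalization and 16 and 7 with median centring. Spike-in scaling put 2 at least 2-fold lower, turned the median to -0.16 and left 6 members positive and 16 negative. In that setting ZSCAN10 and ZSCAN20 were below the floor on both arrays, and ZSCAN18 passed it on the untreated array. Of the members at least 1.5-fold higher spike-in scaling turned ZSCAN12 to -0.14, ZSCAN30 to -0.047 and ZSCAN31 to -0.050. Of the others it turned ZKSCAN1 (-0.16), ZSCAN9 (-0.16), ZKSCAN4 (-0.31), PGBD1 (-0.61), ZSCAN25 (-0.62), ZSCAN29 (-0.62), ZKSCAN5 (-0.72) and ZKSCAN8 (-0.68). This setting lowers every ratio by about the spike-in difference by its construction. The floor removes dim genes by construction, and elsewhere the cause was not tested. Signals near the floor limit ZSCAN10, ZSCAN20 and ZSCAN23 to bounds. The members' median lay above that of all genes by 0.33 as reported and by 0.33 to 0.48 with quantile normalization, only _at probe sets, the mean over probe sets, the pseudocount and both other floors. Median centring could not change this distance, and spike-in scaling could do so only through genes near the floor.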
